A study of Homo sapiens with 3 samples.

Results

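The tissue inhibitors of metalloproteinases (TIMP1, TIMP2, TIMP3 and TIMP4) and RECK were followed in PANC-1 cells, an established line from a human pancreatic cancer, after treatment with cantharidin, a blister beetle toxin, or okadaic acid, a marine toxin, which both inhibit protein phosphatase 2A (PP2A). The members were given by name, and probes were assigned to them through the RefSeq accession on the array, which gave 6 probes for 5 genes among 34041 probes and 19699 named genes. RECK had 2 probes and each TIMP gene had 1. Each group had 1 array of 3 in all, namely untreated control cells, cells given 20 µM cantharidin and cells given 20 µM okadaic acid. The treatment note gives 24 h of exposure. It states the dose in wording that could apply to cantharidin alone, while the sample label of the okadaic acid cells repeats it. All cells were PANC-1 grown in the same medium, and no vehicle for the control is given in the labels. With 1 array per group no test was possible, and no difference below has a replicate check.

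The TIMPs are small secreted proteins that sit in the active site of matrix metalloproteinases (MMPs), the enzymes that cut collagen and other proteins of the extracellular matrix. They differ in their targets. TIMP1 inhibits most secreted MMPs but is a poor inhibitor of several membrane-type MMPs. TIMP2 inhibits widely and also joins MMP14 at the cell surface in the complex that activates the precursor of MMP2. TIMP3 stays bound to the matrix and reaches ADAM and ADAMTS proteases, and TIMP4 has the narrowest tissue range. RECK is unrelated to them in sequence. It is a membrane-anchored glycoprotein that restrains MMP2, MMP9 and MMP14 and serves, together with ADGRA2, as a co-receptor for WNT7A and WNT7B.

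Because the members that differed most from control were TIMP1, TIMP4 and RECK, their upstream sequences are shown first. Each is the 250 bases before the annotated gene start from RefSeq (GRCh38.p14), which held an entry for 4 of the 5 members. The sequences run 5′ to 3′ on the strand of the gene. TIMP1 is chrX:47582186-47582435 on the plus strand, TIMP4 is chr3:12158913-12159162 on the minus strand and RECK is chr9:36036663-36036912 on the plus strand. Capitals mark matches, on either strand, to an AP-1 variant (TGAGTAA), an ETS core (AGGAAG), a RUNX motif (TGTGGT) and a GC box (GGGCGG), the element bound by SP1 and related factors.
TIMP1: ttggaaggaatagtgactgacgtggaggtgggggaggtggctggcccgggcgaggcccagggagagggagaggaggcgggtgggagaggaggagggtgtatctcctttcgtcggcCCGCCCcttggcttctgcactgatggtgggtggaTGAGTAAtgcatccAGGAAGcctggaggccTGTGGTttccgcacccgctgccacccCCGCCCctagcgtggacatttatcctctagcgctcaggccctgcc
TIMP4: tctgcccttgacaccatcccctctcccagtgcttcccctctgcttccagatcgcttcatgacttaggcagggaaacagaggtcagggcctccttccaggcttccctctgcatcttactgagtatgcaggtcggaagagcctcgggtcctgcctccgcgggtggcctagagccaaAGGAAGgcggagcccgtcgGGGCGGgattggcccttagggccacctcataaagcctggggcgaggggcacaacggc
RECK: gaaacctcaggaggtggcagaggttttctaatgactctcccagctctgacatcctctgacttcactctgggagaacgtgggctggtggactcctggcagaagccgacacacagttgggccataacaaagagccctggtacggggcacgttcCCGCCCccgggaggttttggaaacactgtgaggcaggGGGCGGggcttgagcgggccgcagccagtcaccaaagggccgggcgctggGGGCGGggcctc

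In TIMP1, the AP-1 variant began 101 bases before the start, the ETS core 87 and the RUNX motif 71, so these matches lay within a short stretch on the strand of the gene. The same letters were found in 2.25% (AP-1 variant), 28.7% (ETS core) and 10.9% (RUNX) of 27305 upstream windows of this length. The AP-1 consensus TGAGTCA, present in 4.16% of the windows, matched none of the 4 members. GC boxes occurred in 42.3% of the windows, with 2 in TIMP1, 1 in TIMP4, 3 in RECK and 5 in TIMP3. At least 3 GC boxes were found in 14.0% of all windows and at least 5 in 4.20%. The motifs were chosen with these sequences known, none overlapped another, and a match describes the letters only.

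**Figure D1:**
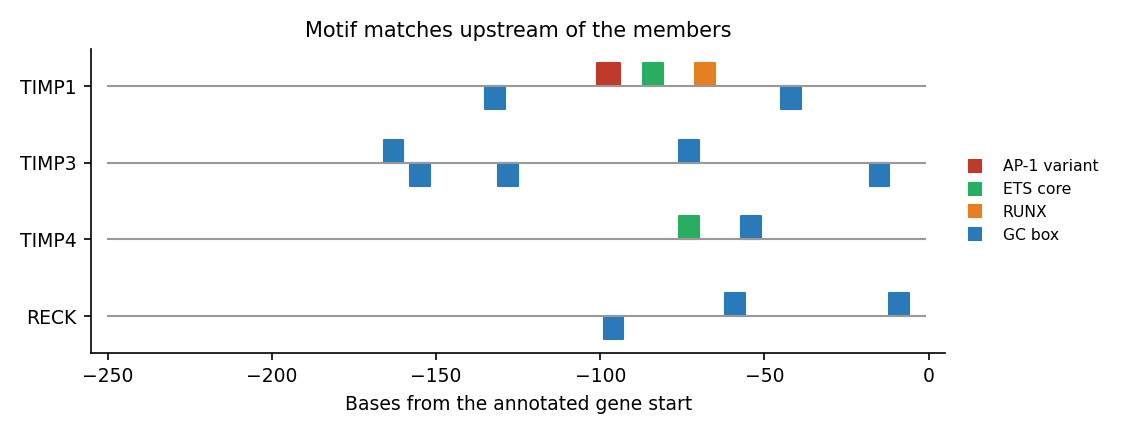
Motif matches in the 250 bases before the annotated start of TIMP1, TIMP3, TIMP4 and RECK, with distance in bases on the x axis and 1 line per gene; boxes above the line lie on the strand of the gene and boxes below it on the opposite strand. TIMP1 held the AP-1 variant, ETS core and RUNX matches side by side, and TIMP3 and RECK held GC boxes alone.

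The arrays differed in how dim a signal they could measure. The lowest signal among probes well above background, called the floor here, was 35.0 intensity units for control cells, 21.9 with cantharidin and 58.0 with okadaic acid. Signals were set relative to the 75th percentile of their array before they were compared, and a fold of 1.5 was used as the limit for a call. Spot noise is given as the SD of a log2 difference, from replicate spots of like brightness, and covers neither culture nor RNA preparation. As a check of the label, all 6 epithelial markers were well above background in control cells, and 5 were on each treated array. Their summed signal was 146484 in control cells, 164597 with cantharidin and 269074 with okadaic acid, mostly from KRT18 and KRT8. KRT18 was 1.99-fold and 2.29-fold higher with the 2 agents in that order, but 3 of the 6 were lower under each. CDH1 (E-cadherin) was at least 6.34-fold and at least 3.43-fold lower and no longer cleared the background, and EPCAM was 3.42-fold and 2.20-fold lower. Of 6 fibroblast markers, 4 were well above background in control cells (COL1A1, COL3A1, DCN and THY1), 4 with cantharidin and 3 with okadaic acid, with sums of 1169, 737 and 1087. PDGFRB cleared the background with cantharidin alone, at least 11.8-fold above control, and LUM on no array. COL1A1 went the other way, at least 21.9-fold lower with cantharidin and at least 10.9-fold lower with okadaic acid. With cantharidin COL3A1 was 2.69-fold higher, DCN 1.76-fold lower and THY1 3.93-fold lower. With okadaic acid COL3A1 was 1.58-fold lower, DCN differed by 1.14-fold and THY1 was 1.57-fold higher. Sums of different lists are not comparable, since probes differ in brightness. Endothelial markers had 2 of 4 genes above background on every array, with sums of 2268 in control cells, 1321 under cantharidin and 1602 under okadaic acid, while TEK and the brightest PECAM1 probe did not clear it on any array. Leukocyte markers had 4 of 4 and sums of 3313, 2545 and 12058, the last mostly CD14 at 11044. The part of these markers in the results below was not tested.

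TIMP1 was upregulated by both agents and more by cantharidin. Control cells gave an intensity of 16052, cantharidin cells 117315 and okadaic acid cells 66084, all far above the floor. After scaling, this amounted to an 8.04-fold higher signal under cantharidin, a log2 difference of 3.01 with a spot noise of 0.08. Under okadaic acid the signal was 3.45-fold higher, with a log2 difference of 1.79 and a spot noise of 0.07. Okadaic acid cells lay 2.33-fold below cantharidin cells. Of 16644 genes compared for cantharidin, 573 had a difference at least as high as that of TIMP1, and for okadaic acid 1455 of 16166 did. TIMP1 belongs to the genes that the study singled out on these same arrays, so its rise is not independent evidence for that choice. In such bulk RNA, more transcript per cell and more cells with the transcript cannot be told apart.

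TIMP2 stayed near its control level. The intensities were 30295 for control cells, 25847 with cantharidin and 36937 with okadaic acid, so it was bright on all arrays. After scaling, the log2 difference was -0.09 under cantharidin, against a spot noise of 0.08, and 0.03 under okadaic acid, against a spot noise of 0.07. The differences amounted to 1.06-fold and 1.02-fold. The direction of these small values depended on the setting, since centring within blocks of the array gave 0.05 for cantharidin and scaling to the median gave -0.09 for okadaic acid. MMP2 and MMP14, whose proteins meet TIMP2 at the cell surface, also differed by less than 1.5-fold. In the order control, cantharidin, okadaic acid, MMP2 had intensities of 1121, 883 and 1055, and MMP14 of 57.1, 66.2 and 64.1, close to the floor of the okadaic acid array.

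TIMP3 gave a dim signal throughout. Control cells gave an intensity of 57.0 and cantharidin cells 57.4, which was 1.63 and 2.62 times the floor of each array. In okadaic acid cells it was 48.4 and not well above background. The log2 difference under cantharidin was 0.15, smaller than its spot noise of 0.30. Under okadaic acid the signal was at least 1.17-fold lower than control and at least 1.30-fold lower than cantharidin, and neither bound reaches 1.5-fold. The measured value against cantharidin, a log2 difference of -0.64, passed the limit with a spot noise of 0.36.

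TIMP4 was well above background only in cantharidin cells. The intensity there was 158, or 7.20 times the floor, against 7.0 in control cells and 33.7 in okadaic acid cells, both under the floor of their arrays. Cantharidin cells were therefore at least 4.96-fold higher than control cells and at least 3.57-fold higher than okadaic acid cells. No fold is given between okadaic acid and control, where neither array measured the transcript.

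RECK went the other way and was lower under both agents on both probes. On the brighter probe the intensity dropped from 755 in control cells to 61.0 with cantharidin and 77.5 with okadaic acid. Its signal was 11.2-fold lower under cantharidin, a log2 difference of -3.49 with a spot noise of 0.20, and 11.6-fold lower under okadaic acid, at -3.54 with a spot noise of 0.22. These sizes depended on the setting, from -2.41 with normexp background correction to -3.94 in the deposited table for cantharidin, and from -2.48 to -4.23 for okadaic acid. Both treated signals were near the floor, at 2.79 and 1.34 times its value. The other probe read 555, 27.1 and 75.3. On it RECK was at least 18.6-fold lower under cantharidin, where it was not well above background, and 8.79-fold lower under okadaic acid. A difference at least as low as that of the brighter probe was found for 283 of 16644 genes with cantharidin and 144 of 16166 with okadaic acid. The probes did not place the agents in the same order. The brighter probe differed by 1.03-fold between them, while the other was at least 2.12-fold higher under okadaic acid.

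**Figure D2:**
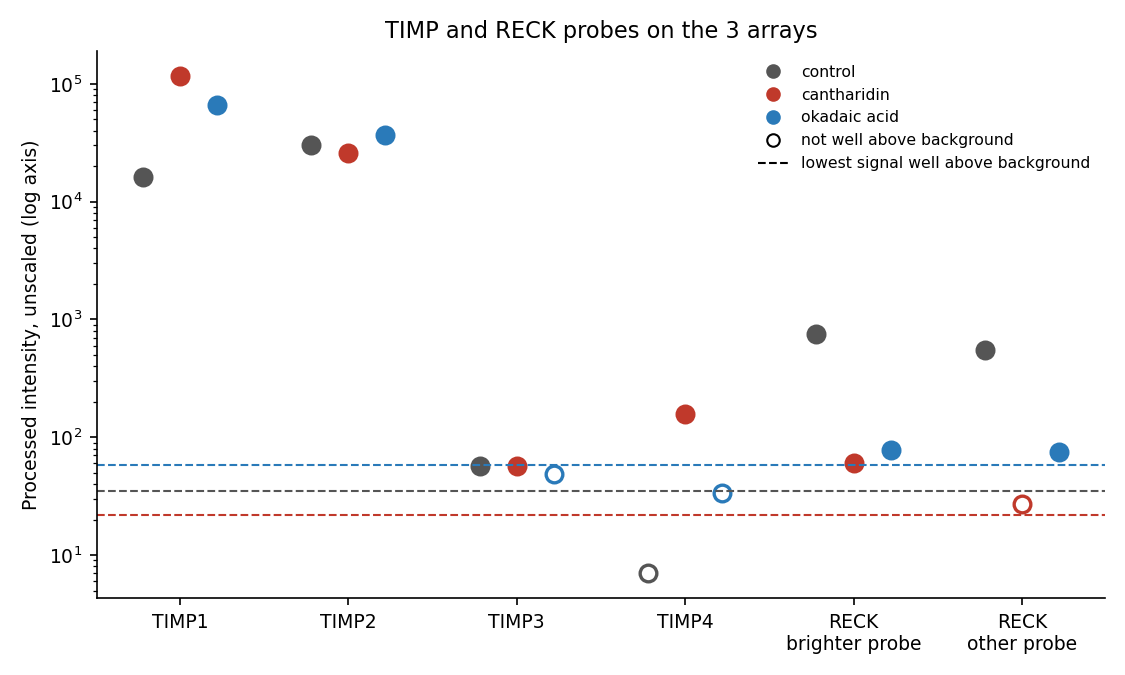
Unscaled processed intensity (log axis) of the 6 member probes on the 3 arrays (control, cantharidin, okadaic acid), 1 point per array, with open points for signals not well above background and dashed lines at the floor of each array. TIMP1 was brighter on both treated arrays, TIMP2 was level, TIMP4 stood above its floor under cantharidin alone, and both RECK probes dropped toward the floor.

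By gene, 2 of the 5 members were at least 1.5-fold higher under cantharidin (TIMP1 and TIMP4) and 1 was lower (RECK), while 27.5% of all 16644 genes compared were higher and 34.1% lower. Under okadaic acid 4 members could be compared, of which 1 was higher (TIMP1) and 1 lower (RECK), against 28.1% and 28.8% of 16166 genes. Set directly against cantharidin, okadaic acid gave 0 higher and 3 lower members (TIMP1, TIMP3 and TIMP4), against 29.5% and 22.3% of 16200 genes. The call of TIMP3 rests on its measured value, since its bound is under 1.5-fold. Calls were this common across the genome, so the counts do not set the family apart, and no test was possible with 1 array per group. Both comparisons with control used the same control array. Under each alternative scaling and background correction TIMP1 stayed between 2.87 and 3.10 on the log2 scale for cantharidin and between 1.67 and 2.04 for okadaic acid.

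**Figure D3:**
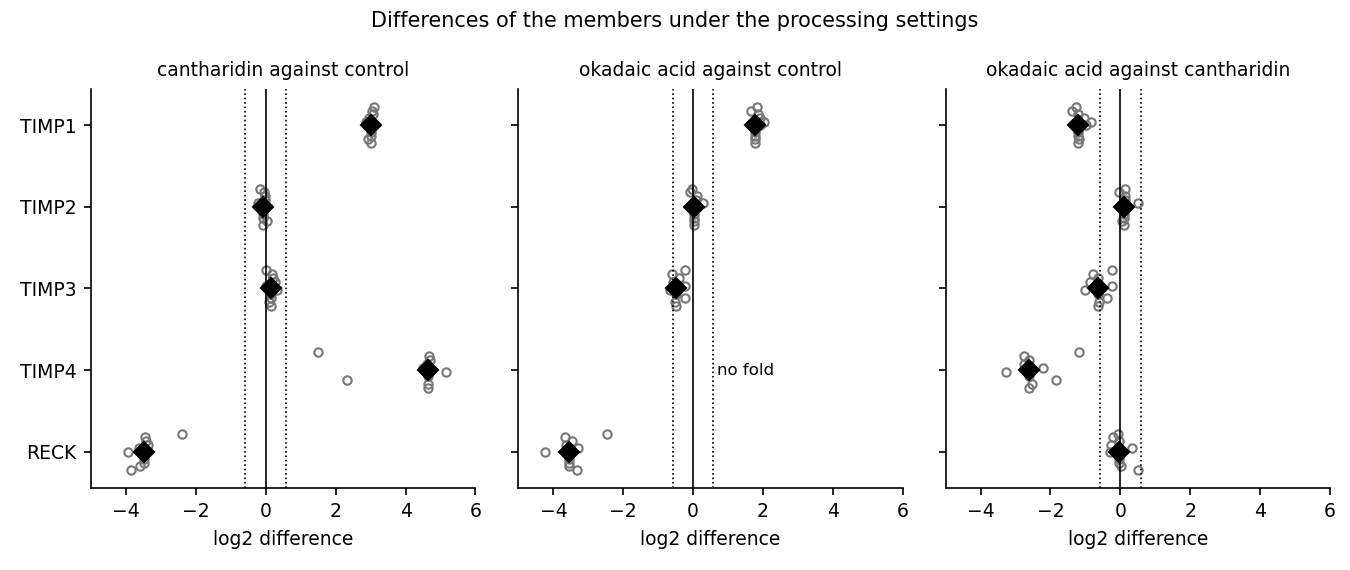
Log2 differences of TIMP1, TIMP2, TIMP3, TIMP4 and RECK in the 3 comparisons, with a black diamond for the value reported, open circles for the alternative settings and dotted lines at 1.5-fold. TIMP1 and RECK kept their side of the limit against control in every setting, whereas the value of TIMP4 under cantharidin ranged from 1.49 to 5.16.

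TIMP1, TIMP3 and TIMP4 each lie within the span of a synapsin gene (SYN1, SYN3 and SYN2, in that order), which encode proteins of synaptic vesicles. The intensity of SYN1 was 156 on the control array, 144 with cantharidin and 307 with okadaic acid. Its log2 difference was 0.02 under cantharidin, where TIMP1 was highest, and 0.72 under okadaic acid, a 1.64-fold rise in the direction of TIMP1. SYN2, host of TIMP4, differed by 1.14-fold and 1.04-fold on its brighter probe. Its second probe read 48.2 in control cells. With cantharidin it was at least 1.63-fold lower, and with okadaic acid it read 15.6, too dim for a bound. SYN3, host of TIMP3, differed by 1.36-fold and 1.21-fold on its brighter probe. Its second probe was 3.16-fold lower with cantharidin and differed by 1.29-fold with okadaic acid.

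The proteases that the TIMPs restrain varied widely. Where a pair of folds is given for a gene below, the first is cantharidin and the second okadaic acid, each against control. Of 16 secreted MMPs, 11 could be compared for cantharidin, with 4 higher and 4 lower, beside 27.5% and 34.1% of all genes. The median log2 difference was 0.10, against -0.16 over all genes. For okadaic acid 5 of 12 were higher and 1 lower, beside 28.1% and 28.8% of all genes. The median was 0.17, against 0.01 over all genes. A gene dim in control cells could be compared only where a treated signal was well above background. Requiring signal on all 3 arrays left 7 genes, with 2 higher under each agent. Of these 7, 3 were lower with cantharidin and 1 with okadaic acid. Their medians were -0.21 and -0.23, against -0.17 and 0.04 over all genes. MMP1, the interstitial collagenase, went from an intensity of 3867 to 73186 with cantharidin and 14193 with okadaic acid. It was 20.8-fold and 3.08-fold higher, the same order of agents as TIMP1. MMP9, a gelatinase, was 2.17-fold and 5.35-fold higher, the reverse order. MMP11 was 5.05-fold and 2.00-fold lower, and MMP19 was 1.76-fold lower with cantharidin but differed by 1.17-fold with okadaic acid on its brighter probe. Its second probe gave the opposite order, with a 1.20-fold difference and a 1.72-fold lower signal. The stromelysins MMP3 and MMP10, named after their values were seen, did not clear the background in control cells. MMP10 was higher by at least 65.5-fold with cantharidin and by at least 49.7-fold with okadaic acid. For MMP3 the bounds were at least 4.44-fold with cantharidin and at least 16.4-fold with okadaic acid.

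Of the membrane-type MMPs, 3 of 5 were lower and 1 higher under cantharidin, beside 34.1% and 27.5% of all genes, with a median of -1.15 against -0.16. Under okadaic acid 3 of 5 were lower and 0 higher, beside 28.8% and 28.1% of all genes. The median there was -1.04 against 0.01, but -0.41 with 2 genes lower when the probes of a gene were summarised by their median. MMP17 was 4.0-fold and 2.34-fold lower and MMP24 was 2.75-fold and 3.07-fold lower. MMP15 was 2.22-fold lower under cantharidin and differed by 1.16-fold under okadaic acid. MMP25 rose 2.40-fold with cantharidin and was 2.05-fold lower with okadaic acid on its brighter probe, whereas its second probe stayed within 1.5-fold of control. Among ADAM and ADAMTS proteases, 7 of 24 were higher and 11 lower under cantharidin (median -0.36), and 6 of 22 were higher and 7 lower under okadaic acid (median 0.03), where 27.5% and 28.1% of all genes were higher and 34.1% and 28.8% lower. Requiring signal on all 3 arrays left 3 higher and 7 lower under cantharidin. ADAM17, which sheds TNF and ligands of the EGF receptor, was 3.29-fold and 1.57-fold higher, and ADAM8 was 15.6-fold and 7.69-fold higher. ADAM19 was 10.0-fold and 2.16-fold lower on its brighter probe. On its second probe, not well above background with either agent, it was at least 2.39-fold and at least 1.12-fold lower, the last under 1.5-fold. ADAMTS1, which cleaves aggrecan and versican, had intensities of 106 in control and 119 in cantharidin cells, a 1.23-fold difference, and of 10754 in okadaic acid cells, 85.0-fold above control. Its second probe was 39.8-fold higher with okadaic acid and 1.63-fold lower with cantharidin.

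Among genes for the binding partners of the TIMPs and RECK, 7 of 11 were lower and 2 higher under cantharidin, beside 34.1% and 27.5% of all genes. The median log2 difference was -1.01 against -0.16. The 2 higher genes, named after their values were seen, were KDR and AGTR2. KDR was 4.84-fold higher with cantharidin and at least 2.36-fold lower with okadaic acid. AGTR2 was at least 2.23-fold higher with cantharidin on its brighter probe, and its second probe cleared the background on no array. Requiring signal on all 3 arrays left 7 of 9 lower and 0 higher under cantharidin. Under okadaic acid 7 of 10 were lower and 1 higher, beside 28.8% and 28.1% of all genes. The median there was -1.92 against 0.01, and it ranged from -2.32 to -1.13 over the alternatives. EFEMP1, a matrix protein that binds TIMP3, went from an intensity of 1189 to 34.5 with cantharidin and 88.6 with okadaic acid, which was 31.3-fold and 16-fold lower. ITGA3 was 8.72-fold and 9.88-fold lower and ITGB1 was 2.49-fold and 5.76-fold lower; together they form the integrin through which TIMP2 acts on cells. LRP5, a co-receptor for WNT proteins, was 14.8-fold and 15.3-fold lower. The remaining genes of the RECK and WNT7 complex were named after their values were seen. ADGRA2 had intensities of 771, 145 and 231 and was 4.83-fold and 3.98-fold lower, in the direction of RECK. LRP6 was 2.02-fold lower with cantharidin and differed by 1.31-fold with okadaic acid. The receptor FZD4 was 1.58-fold lower with cantharidin but 5.65-fold higher with okadaic acid. WNT7B was dim on its brightest probe, at 93.7, 77.8 and 62.7, and there it differed by 1.09-fold with cantharidin and was 1.78-fold lower with okadaic acid. Another WNT7B probe was at least 4.03-fold and at least 1.99-fold lower, and the remaining probe stayed within 1.5-fold of control. WNT7A did not clear the background on any array. CD63, the surface partner of TIMP1, was not analysed here.

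Among 20 genes known to act on TIMP1 transcription, 6 were higher and 1 lower under cantharidin (median 0.07), and 9 were higher and 3 lower under okadaic acid (median 0.41). Over all genes 27.5% were higher and 34.1% lower under cantharidin, and 28.1% and 28.8% under okadaic acid. With the probes of a gene summarised by their median, 5 of the 20 were higher and 2 lower under cantharidin. Without scaling 4 were lower. FOS and FOSB encode subunits of AP-1. FOSB was 15.7-fold and 16.4-fold higher, and FOS was 2.85-fold and 17.7-fold higher, so FOS did not follow the order of agents seen for TIMP1. The next genes were named after their values were seen. JUN, JUNB and JUND stayed within 1.5-fold of control with both agents. FOSL1 did so with cantharidin and was 1.89-fold higher with okadaic acid, and FOSL2 was 2.43-fold and 1.58-fold higher. ETS2 and ETV4 stayed within 1.5-fold, and ETS1 differed by 1.32-fold and was 1.89-fold lower. OSM was 3.82-fold and 3.06-fold higher on its brighter probe. Its second probe was 1.83-fold lower with cantharidin and differed by 1.36-fold with okadaic acid. STAT3 differed by 1.05-fold and 1.36-fold on its brighter probe. Its second probe differed by 1.04-fold with cantharidin and was 3.44-fold lower with okadaic acid. IL11, a cytokine that induces TIMP1, was 14.1-fold and 12.5-fold higher. RUNX1 was 9.53-fold and 1.98-fold higher on its brightest of 5 probes. The next brightest was 9.12-fold and 8.22-fold higher, so the order of the agents rests on the probe, and another was 1.63-fold lower with cantharidin. RUNX2, also named after its values were seen, differed by 1.44-fold with cantharidin and was 1.62-fold lower with okadaic acid. Other inhibitors of proteases, mainly serpins and cystatins, were mixed, with 7 of 28 higher and 10 lower under cantharidin (median -0.06). Under okadaic acid 10 of 27 were higher and 5 lower (median 0.33). The medians over all genes were -0.16 and 0.01. Requiring signal on all 3 arrays left 4 of 21 higher and 8 lower under cantharidin, with a median of -0.17. SPINK1, a trypsin inhibitor of the pancreas, was 10.1-fold and 6.96-fold higher. SERPINE2 was 5.38-fold and 4.84-fold higher and SERPINB9, an inhibitor of granzyme B, was 5.09-fold and 4.72-fold higher. SERPINI1 was 3.77-fold and 1.98-fold lower.

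**Figure D4:**
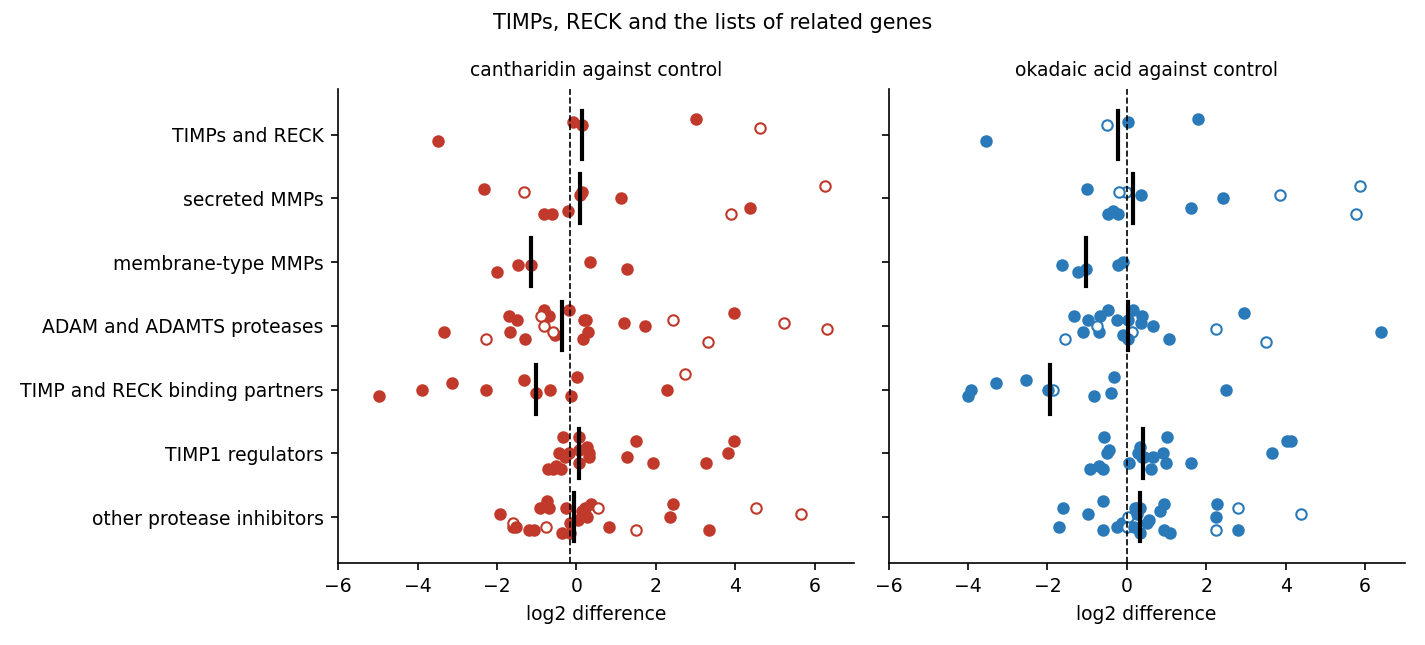
Log2 differences from control for the TIMPs and RECK and for 6 lists of related genes, under cantharidin (left) and okadaic acid (right), 1 point per gene, open where the gene was well above background on only 1 of the arrays compared. Black bars are list medians and the dashed line is the median of all genes (-0.16 and 0.01); the bars of the membrane-type MMPs and the binding partners lie below that line under both agents.

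The direct comparison of the agents adds the values between treated cells. The median log2 difference of okadaic acid minus cantharidin was 0.13 over all genes, 0.25 for the secreted MMPs, -0.16 for the membrane-type MMPs, 0.35 for the ADAM and ADAMTS proteases, -0.18 for the binding partners, -0.03 for the regulators of TIMP1 and 0.10 for the other inhibitors. MMP1 was 6.77-fold lower and MMP9 2.47-fold higher under okadaic acid. LRP5 and ADGRA2 differed by 1.03-fold and 1.21-fold between the agents, and the brighter RECK probe by 1.03-fold. The other RECK probe was at least 2.12-fold higher under okadaic acid. Other genes of the RECK and WNT7 complex did differ. FZD4 was 8.90-fold and LRP6 1.54-fold higher under okadaic acid, and WNT7B was 1.63-fold lower on its brightest probe.

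Among 14222 genes well above background on all arrays, the 3 with differences from control nearest to those of TIMP1 were CCNL1, ASPRV1 and ZSCAN32. Nearness was the straight-line distance between the pairs of log2 differences, and it was 0.06, 0.08 and 0.12. The genes nearest to RECK were DISP2, HTRA1 and BBS2, at 0.04, 0.08 and 0.15, and those nearest to TIMP2 were MCL1, ITGB7 and RILPL1, at 0.0075, 0.0091 and 0.012. Many genes share such a pattern over 3 arrays. Within 0.5 of TIMP1 there were 85 genes, within 0.5 of RECK 34 and within 0.5 of TIMP2, which stayed near control, 2559.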

How the data were processed

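Total RNA of 3 samples was labelled with Cy3 and hybridised to 1-colour Agilent arrays. The authors deposited the scanner output, with a spot intensity that Feature Extraction 11.0.1.1 had background-subtracted and detrended within each array (probe annotation hg19), and flags for outlier, saturated and well-above-background spots. They also deposited normalized log2 values for 30923 probes, with column medians of 7.74 in each sample. The scale was log2, but how they were normalized is not given in the sources used here. They served as an alternative setting. The 3 arrays shared 1 slide and 1 scan, and the position on the slide and the group cannot be told apart.

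The log2 intensities of spots with no outlier flag were averaged per probe, and the 75th percentile of each array was subtracted. Probe accessions, less their version, were looked up among RefSeq transcripts (GRCh38.p14), and 25705 probes received a name. A gene was represented by its brightest probe and compared when 1 or both arrays of the comparison measured that probe well above background. Where 1 array did not, the fold is a bound, with the dim array set to its own signal or to the floor, whichever was higher. A fold of 1.5, the limit in the study, made a call, and no probe was saturated. Spot noise is the median SD over the 100 replicated probes of nearest brightness, combined over the arrays. The scaling and calling steps were tested on simulated data in which few probes changed, all of them well above background. That test does not cover dim signals or changes as common as those found here. The number of arrays limits the precision.

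Named genes were all members, their synapsin hosts, the 4 genes of each list with the largest change among those measured on all arrays, MMP2, MMP14 and CD63, and the 3 genes nearest to each member measured on all arrays. Members and lists were chosen with earlier results of these data known. CD63 and CST4 had no matched probe. Alternatives were normexp (offset 50, on median spot and background intensity), other scalings, filters and probe rules, a 2-fold limit and centring within 16 blocks. Background correction and quantile scaling used limma 3.58.1 (R 4.3.3). The rest was computed in Python 3.11.15 (pandas 2.3.3, numpy 2.4.6), with figures by matplotlib 3.10.9.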

Additional observations from a re-analysis of the deposited data

How the results depend on the processing

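Of 78 counts of members under the 13 alternatives, 69 lay within 1.5 times the value reported. Requiring signal well above background on all 3 arrays left 1 member higher under cantharidin and 1 lower under okadaic acid than under cantharidin, both TIMP1, since TIMP3 and TIMP4 are then not compared. Counting every probe gave 2 lower under each agent, both of them RECK, and 1 higher in okadaic acid than in cantharidin cells, also RECK. With no filter 2 were higher under okadaic acid, with TIMP4 added. Scaling to the median, quantile normalization and the deposited table each gave 2 lower under okadaic acid, with TIMP3 added to RECK.

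The alternatives gave 248 values for members and synapsin hosts, both called and uncalled. No value past the 1.5-fold limit changed sign. Some within the limit did, such as TIMP2 under cantharidin, from -0.23 to 0.05. A change of filter alone leaves the value of a gene as it is, so many of the 248 could not move. The normexp correction, which adds an offset to every signal, gave RECK -2.41 under cantharidin and -2.48 under okadaic acid, and TIMP4 1.49 under cantharidin. With dim signals at the floor TIMP4 was at 2.31. The call of TIMP3 in okadaic acid against cantharidin cells ended with normexp (-0.24), without scaling (-0.24) and at the floor (-0.38). Over all genes the median difference moved by over 0.1 only without scaling, to -0.30, 0.26 and 0.52 in the 3 comparisons, with the median scaling (-0.11 for okadaic acid, -0.02 between agents) or with no filter (0.27 between agents). Among the lists, 550 of 630 values stayed close to those reported and no median past 1.5-fold changed sign. No paired analysis was possible because each group has 1 array. Signals near the floor, those of TIMP3, TIMP4 and treated RECK, are limited by background.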
